A study of Mus musculus with 6 samples.

Results

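Long-chain fatty acids enter mitochondria through the carnitine shuttle. Carnitine palmitoyltransferase 1 (CPT1) on the outer membrane passes the acyl group from coenzyme A to carnitine, a carrier takes acylcarnitine across the inner membrane, and CPT2 passes the acyl group back to coenzyme A inside. Malonyl-CoA, made by the acetyl-CoA carboxylases and removed by malonyl-CoA decarboxylase, is both the building block of new fatty acids and the inhibitor of CPT1. In epidermis, fatty acids are known as a fuel and as the raw material of the barrier lipids.

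The expression of 10 genes of this system was examined among 38924 genes counted in mouse CD49f+ epidermal cells. They are the CPT1 genes Cpt1a, Cpt1b and Cpt1c, the carrier gene Slc25a20, Cpt2, the carnitine acyltransferase genes Crat and Crot, the carboxylase genes Acaca and Acacb, and the decarboxylase gene Mlycd. They were listed by function and found by gene symbol, and the group was put together with results of the Cre comparison known. The values it was chosen by include those of Cpt1c and Acacb, which had passed the threshold of that comparison, so the differences of the 10 genes are given as a description and no test is drawn from them.

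RNA was sequenced from 3 K14-Cre+ and 3 K14-Cre- libraries, all from mice with Rnaseh2b flox/flox alleles, whose cells were sorted from skin suspensions for CD49f, the integrin alpha 6 of basal keratinocytes. The comparison asks how these cells differ when Rnaseh2b, a subunit gene of RNase H2, is deleted. The keratin 14 promoter that drives the Cre is active in basal keratinocytes, and cells that descend from these inherit the deletion. Cells of other lineages caught in the sort are not its usual targets. The labels give no age or strain and do not say whether the libraries of a group are separate animals, so the spread between them may be partly technical.

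The libraries held 22948779 to 31718094 counts. Rnaseh2b had 5.29, 3.98 and 3.28 CPM (counts relative to the scaled size of the library) in K14-Cre+ cells and 21.8, 20.7 and 21.7 CPM in K14-Cre- cells. Over all genes, 63 rose and 17 fell among 15525 tested by edgeR's quasi-likelihood test (0.515% of the genes called, 0.406% higher and 0.110% lower; adjusted p under 0.05), and 2913 had an unadjusted p under 0.05. This count depended on single libraries: it was 25, 7 and 422 without K14-Cre+ replicate 1, 2 or 3 and 0, 0 and 1 without K14-Cre- replicate 1, 2 or 3. The summed level of 6 basal keratinocyte markers, Krt5, Krt14, Itga6, Itgb4, Col17a1 and Trp63, was 15300 to 16900 CPM in K14-Cre+ and 14600 to 16800 CPM in K14-Cre- libraries. The summed level of 5 suprabasal markers was larger, at 102000 to 138000 CPM in K14-Cre+ and 81300 to 103000 CPM in K14-Cre- libraries. All 5 had positive log2 fold changes and 0 passed the threshold by edgeR. The part of suprabasal cells in the Cpt1c and Acacb values was not tested. By their Xist and Y-linked reads, 2 of 3 K14-Cre+ and 1 of 3 K14-Cre- libraries were male.

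The upstream sequences of Cpt1c and Cpt1a are shown because these CPT1 genes differed in how they compared between the groups. Each run holds the 250 bases before the RefSeq transcription start on GRCm38.p6, written 5′ to 3′ on the gene's strand. For both genes this start is the start of the counted gene. Cpt1c is read from chr7:44974852-44975101 on the minus strand and Cpt1a from chr19:3323051-3323300 on the plus strand. Capitals mark matches, on either strand, to the GC box GGGCGG, the CCAAT box CCAAT and the nuclear receptor half-site AGGTCA.
Cpt1c: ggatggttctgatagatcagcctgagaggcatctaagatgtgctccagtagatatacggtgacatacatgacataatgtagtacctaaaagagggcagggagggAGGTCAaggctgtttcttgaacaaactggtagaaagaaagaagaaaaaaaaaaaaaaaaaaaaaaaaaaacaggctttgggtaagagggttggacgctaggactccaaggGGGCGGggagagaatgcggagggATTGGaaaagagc
Cpt1a: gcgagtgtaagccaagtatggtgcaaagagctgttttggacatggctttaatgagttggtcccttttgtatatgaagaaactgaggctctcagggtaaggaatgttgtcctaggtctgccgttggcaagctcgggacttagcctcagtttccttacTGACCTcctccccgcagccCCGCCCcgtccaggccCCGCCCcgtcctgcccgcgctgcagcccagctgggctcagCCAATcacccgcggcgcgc

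The Cpt1c window held 1 GC box, 31 to 36 bases before the start, and the Cpt1a window held 2, at 54 to 59 and 70 to 75 bases. Among 32851 windows of this length, 32.7% held a GC box, 33.8% a CCAAT box and 14% the half-site, so all 3 matches are common. Neither window matched the p53 half-site (found in 7.13% of windows), the AP-1 site TGANTCA (6.75%), the E box CACGTG (6.02%) or the sterol response element TCACNCCAC (1.05%). None of the matches shown overlapped another. Windows were found for 8 of the 10 genes and not for Cpt1b and Crat. Those of Acacb and Acaca lie before RefSeq starts 18983 and 65766 bases inside the counted genes and are not shown.

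Among the CPT1 genes, Cpt1c was several times higher in K14-Cre+ cells and Cpt1a was at about the same mean level in both groups. Cpt1c (ENSMUSG00000007783) encodes the CPT1 form known from neurons, which lies in the endoplasmic reticulum, binds malonyl-CoA and has little transferase activity; the mouse gene has been described as responsive to p53. It lies on chromosome 7 of mm10 from 44959373 to 44974851 on the minus strand, with 19 counted exon blocks. Its counts were 693, 485 and 273 in the K14-Cre+ libraries and 100, 60 and 91 in the K14-Cre- libraries. Scaled, it had 21.3, 21.5 and 13.0 CPM in K14-Cre+ cells and 4.01, 2.46 and 3.46 CPM in K14-Cre- cells. K14-Cre+ replicate 3 lay below the other K14-Cre+ libraries, yet above every K14-Cre- library.

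The group means of Cpt1c were 18.6 ± 4.86 CPM in K14-Cre+ and 3.31 ± 0.784 CPM in K14-Cre- cells (SD, n = 3 each), a 5.61-fold difference (log2 fold change 2.49, SE 0.26). In the fit over all genes it ranked 19th by p (edgeR adjusted p = 0.0181). The fold stayed between 2.32 and 2.69 on the log2 scale when any 1 library was left out. The adjusted p passed the threshold without K14-Cre+ replicate 1 or 3 (0.0495 and 0.00184) and missed it without K14-Cre+ replicate 2 (0.0965) or K14-Cre- replicate 1, 2 or 3 (0.156, 0.124 and 0.126). Among male libraries Cpt1c had 21.3 and 21.5 CPM with K14-Cre+ and 2.46 CPM with K14-Cre-. Among female libraries it had 13.0 CPM with K14-Cre+ and 4.01 and 3.46 CPM with K14-Cre-. The difference thus ran the same way in either sex, and with sex as a covariate the log2 fold change was 2.41 (edgeR adjusted p = 0.0522).

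Cpt1a (ENSMUSG00000024900, chromosome 19), the broadly expressed CPT1 form of liver and many other tissues, was the most abundant of the 10 genes. It had 122, 146 and 93.1 CPM in K14-Cre+ cells and 115, 121 and 128 CPM in K14-Cre- cells. The K14-Cre+ libraries spread on both sides of the K14-Cre- libraries. Its log2 fold change, -0.01 (SE 0.16), was near 0, and the sign turned without K14-Cre+ replicate 3 (0.15) or K14-Cre- replicate 3 (0.03).

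Cpt1b (ENSMUSG00000078937, chromosome 15), the CPT1 form of muscle and brown fat, was near the limit of detection. It had 3, 2 and 3 counts in K14-Cre+ libraries and 6, 7 and 11 counts in K14-Cre- libraries and did not pass the count filter, so it was not tested. A floor of 3 counts is 0.0922 to 0.143 CPM here and covers counting error only, and the K14-Cre+ libraries lay at or below it. Cpt1b also shares 2744 of its 3372 exon bases (81.4%) with the choline kinase gene Chkb on the same strand. How reads from shared exons were counted is not given in the sources used here, so the level of Cpt1b may be understated. Chkb had 17.9 to 26 CPM in K14-Cre+ and 18.4 to 19.8 CPM in K14-Cre- libraries.

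**Figure D1:**
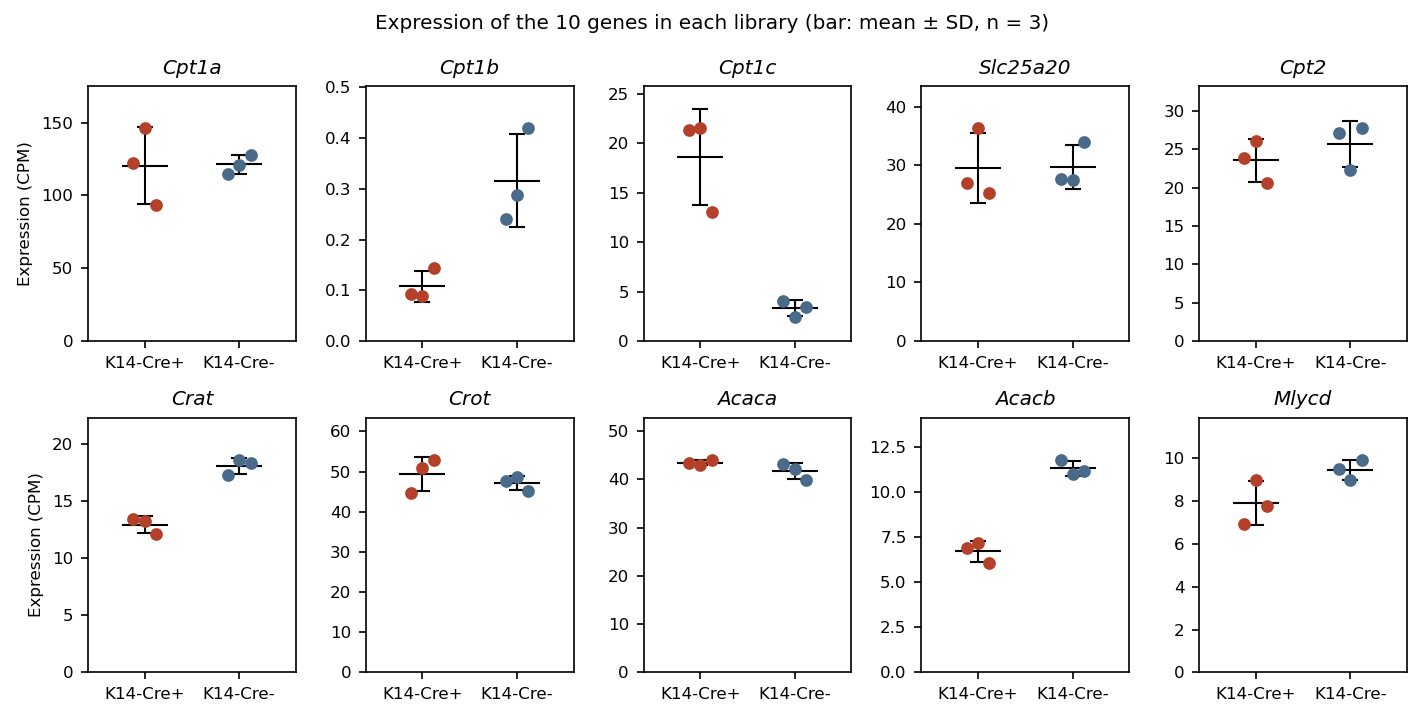
Expression of each of the 10 genes in CPM (vertical axes, each from 0) in the 3 K14-Cre+ libraries (red, left) and the 3 K14-Cre- libraries (blue, right), with mean ± SD. Cpt1c lay higher in all K14-Cre+ libraries (13.0 to 21.5 against 2.46 to 4.01 CPM), while Acacb, Crat and Mlycd lay lower.

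The make-up of CPT1 mRNA differed accordingly. Per kilobase of exon, a scale on which genes of different length can be compared, Cpt1c made up 21.1%, 18.4% and 17.6% of the summed CPT1 level in K14-Cre+ libraries and 5.10%, 3.02% and 3.99% in K14-Cre- libraries. Cpt1a made up 78.8% to 82.2% in K14-Cre+ and 94.6% to 96.7% in K14-Cre- libraries, and Cpt1b at most 0.400% in any library. The shares of Cpt1c did not overlap between the groups, and Cpt1a remained the larger part in all 6 libraries. The summed CPT1 level itself was 36.1, 41.7 and 26.3 CPM per kilobase in K14-Cre+ and 28.2, 29.2 and 31.1 CPM per kilobase in K14-Cre- libraries, which overlap.

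For the genes that carry the acyl group onward, the groups overlapped. Slc25a20 (ENSMUSG00000032602, chromosome 9), the carnitine-acylcarnitine carrier, had 27.0, 36.3 and 25.3 CPM in K14-Cre+ and 27.7, 27.5 and 34.0 CPM in K14-Cre- cells. Cpt2 (ENSMUSG00000028607, chromosome 4) had 23.9, 26.1 and 20.6 CPM in K14-Cre+ and 27.1, 22.3 and 27.7 CPM in K14-Cre- cells. The log2 fold changes were -0.01 (SE 0.16) for Slc25a20 and -0.13 (SE 0.12) for Cpt2, which had -0.04 without K14-Cre+ replicate 3 and -0.22 without K14-Cre- replicate 2. The sign of Slc25a20 turned to 0.05, 0.08 and 0.10 without K14-Cre+ replicate 1, K14-Cre+ replicate 3 or K14-Cre- replicate 3. Cpt1a, Slc25a20 and Cpt2 were each highest in K14-Cre+ replicate 2 and lowest in replicate 3 among the K14-Cre+ libraries.

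Crat and Crot encode transferases for shorter acyl groups, Crat for acetyl groups and Crot for the medium-chain products of peroxisomal oxidation. Crat (ENSMUSG00000026853, chromosome 2) had 13.4, 13.3 and 12.1 CPM in K14-Cre+ cells and 17.3, 18.6 and 18.3 CPM in K14-Cre- cells. All K14-Cre+ libraries lay below all K14-Cre- libraries. The log2 fold change, -0.48 (SE 0.09), lay just outside the threshold (edgeR adjusted p = 0.0751). It passed without K14-Cre+ replicate 3 (edgeR adjusted p = 0.0475) and by the Wald test of DESeq2 (adjusted p = 0.00603). These settings called 422 and 847 genes in all, against 80 by edgeR with all libraries. Crat missed the threshold under every other setting. The edgeR adjusted p was 0.107 and 0.171 without K14-Cre+ replicate 1 or 2. Without K14-Cre- replicate 1, 2 or 3 it was 0.299, 0.275 and 0.294. Crot (ENSMUSG00000003623, chromosome 5) had 44.8, 50.8 and 52.9 CPM in K14-Cre+ and 47.6, 48.6 and 45.2 CPM in K14-Cre- cells. These values overlap, and the log2 fold change of 0.07 (SE 0.08) turned to -0.05 when libraries were scaled by total count alone.

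On the malonyl-CoA side, Acacb was lower in K14-Cre+ cells while Acaca was level. Acacb (ENSMUSG00000042010) encodes the carboxylase at the mitochondrial outer membrane, whose malonyl-CoA is known to act on CPT1. It lies on chromosome 5 of mm10 from 114146535 to 114250761 on the plus strand, with 55 counted exon blocks. Its counts were 225, 163 and 128 in K14-Cre+ libraries and 295, 269 and 295 in K14-Cre- libraries. Scaled, it had 6.91, 7.21 and 6.08 CPM in K14-Cre+ cells and 11.8, 11.0 and 11.2 CPM in K14-Cre- cells. The groups lay well apart and each was tight.

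The group means of Acacb were 6.74 ± 0.586 CPM in K14-Cre+ and 11.4 ± 0.411 CPM in K14-Cre- cells (SD, n = 3 each), with a log2 fold change of -0.75 (SE 0.11). It ranked 77th by p in the fit over all genes, just inside the threshold (edgeR adjusted p = 0.0478). The fold stayed between -0.80 and -0.69 on the log2 scale when any 1 library was left out. The call held without K14-Cre+ replicate 3 (edgeR adjusted p = 0.0302) and ended without K14-Cre+ replicate 1 or 2 (0.0889 and 0.139) or K14-Cre- replicate 1, 2 or 3 (0.272, 0.222 and 0.212). Among male libraries Acacb had 6.91 and 7.21 CPM with K14-Cre+ and 11.0 CPM with K14-Cre-. Among female libraries it had 6.08 CPM with K14-Cre+ and 11.8 and 11.2 CPM with K14-Cre-. The direction was the same in either sex, and with sex as a covariate the log2 fold change was -0.78 (edgeR adjusted p = 0.0749).

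Acaca (ENSMUSG00000020532, chromosome 11) encodes the cytosolic carboxylase that feeds fatty acid synthesis. It had 43.3, 43.0 and 44.0 CPM in K14-Cre+ and 43.2, 42.2 and 39.9 CPM in K14-Cre- cells. The groups nearly coincided, and the log2 fold change of 0.06 (SE 0.07) turned to -0.06 under scaling by total count. Per kilobase of exon, Acacb made up 20.1%, 20.9% and 17.8% of the carboxylase level in K14-Cre+ libraries and 30.1%, 29.2% and 30.7% in K14-Cre- libraries. The summed carboxylase level was 3.54 to 3.58 CPM per kilobase in K14-Cre+ and 3.80 to 4.08 CPM per kilobase in K14-Cre- libraries.

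Mlycd (ENSMUSG00000074064, chromosome 8), the decarboxylase that removes malonyl-CoA, had 6.95, 8.98 and 7.79 CPM in K14-Cre+ and 9.51, 9.0 and 9.93 CPM in K14-Cre- cells. The groups touched without overlapping, K14-Cre+ replicate 2 lying just under K14-Cre- replicate 2. The difference on the log2 scale was -0.26 (SE 0.13) and did not pass the threshold (edgeR adjusted p = 0.321).

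**Figure D2:**
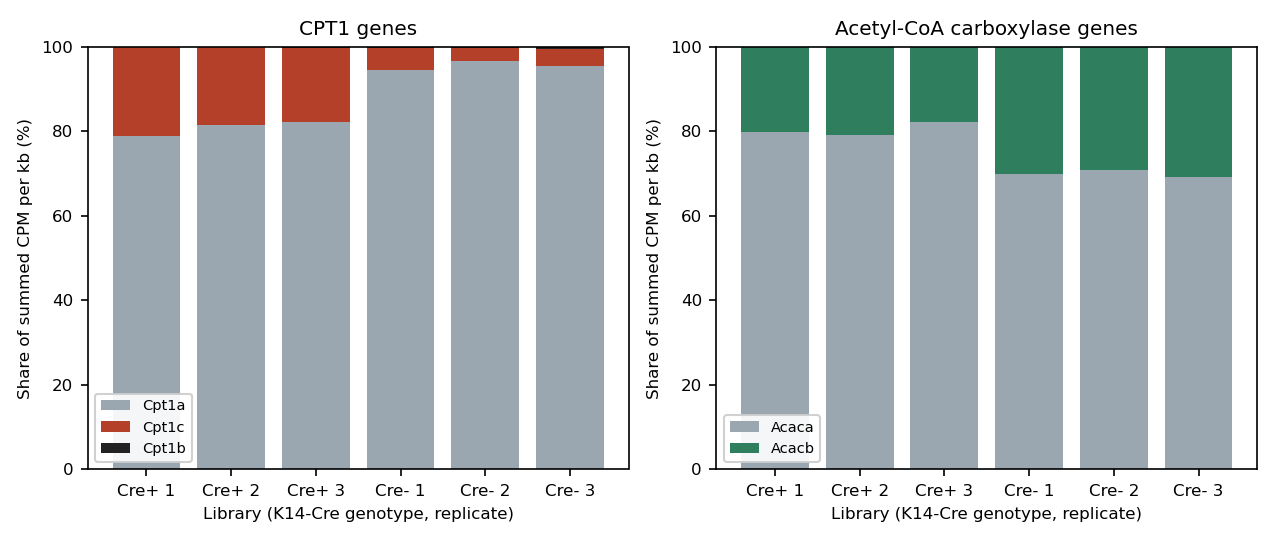
Share of each gene, in percent of the summed CPM per kilobase of exon, within the CPT1 genes (left) and the acetyl-CoA carboxylase genes (right), for each K14-Cre+ and K14-Cre- library. Cpt1c takes 17.6% to 21.1% of the CPT1 level in K14-Cre+ and 3.02% to 5.10% in K14-Cre- libraries, and Acacb takes a smaller share of the carboxylase level in K14-Cre+ libraries.

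Of the 10 genes 9 passed the count filter, of which 3 had a positive and 6 a negative log2 fold change, with a median of -0.01 against -0.005 over all tested genes. Groups did not overlap for 1 gene that was higher in K14-Cre+ cells (Cpt1c) and 3 that were lower (Acacb, Crat and Mlycd). Over all tested genes this held for 28.0%, 14.1% higher and 13.8% lower. The 10 genes were chosen with this contrast known, and nothing is read from these counts.

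**Figure D3:**
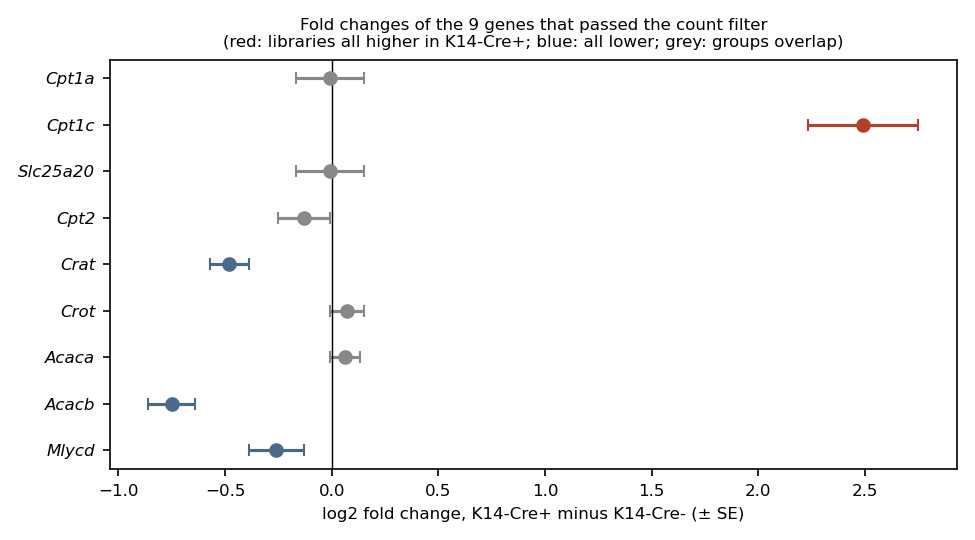
Log2 fold change, K14-Cre+ minus K14-Cre-, with its standard error (horizontal axis) for the 9 genes that passed the count filter. Cpt1c stands at 2.49, Acacb at -0.75 and Crat at -0.48, while Cpt1a, Slc25a20, Crot and Acaca lie within 0.07 of 0.

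By mean level per kilobase of exon over the 6 libraries, Cpt1a was first at 28.1 CPM per kilobase, followed by Slc25a20 (16.6), Cpt2 (10.3) and Crot (8.86). Cpt1c (3.92), Mlycd (2.93), Crat (2.88) and Acaca (2.81) came next, then Acacb (0.940) and Cpt1b (0.0628). The ranges over libraries were separate between Cpt1a and Slc25a20, Slc25a20 and Cpt2, Crot and Cpt1c, Acaca and Acacb, and Acacb and Cpt1b. They overlapped between Cpt2 and Crot and among Cpt1c, Mlycd, Crat and Acaca. Cpt1c changed place between the groups: at 4.64 to 7.69 CPM per kilobase in K14-Cre+ libraries it lay above Mlycd, Crat and Acaca, and at 0.882 to 1.44 CPM per kilobase in K14-Cre- libraries it lay below all of these and beside Acacb, which had 1.15 to 1.23.

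The paralogues share only short stretches. The longest identical run between any pair of protein-coding transcripts was 23 bases for Cpt1c and Cpt1b, 12 for Cpt1c and Cpt1a, 20 for Cpt1a and Cpt1b and 29 for Acacb and Acaca. Apart from Cpt1b, the largest overlaps with another gene were 7.63% of the exon length of Crat with Gm16323, which averaged 1.5 counts, and 1.10% with Dolpp1, both on the opposite strand.

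Beside the lower Acacb, most markers of sebocytes, the lipid-making cells of the sebaceous gland, also had negative fold changes. Of 7 sebocyte genes 1, Dgat2, had a positive log2 fold change and 0 passed the threshold by edgeR. The summed level, most of it Dgat2, was 532 to 848 CPM in K14-Cre+ and 497 to 572 CPM in K14-Cre- libraries. Dgat2 ran opposite to Acacb, with 447, 537 and 753 CPM in K14-Cre+ and 446, 434 and 388 CPM in K14-Cre- libraries. For Awat2, Far2 and Mc5r the groups overlapped. The fatty acid elongase gene Elovl3 had 9.87, 9.96 and 5.70 CPM in K14-Cre+ and 15.5, 16.3 and 13.0 CPM in K14-Cre- libraries. The sterol acyltransferase gene Soat1 had 15.1, 13.5 and 10.9 CPM in K14-Cre+ and 26.6, 24.2 and 21.2 CPM in K14-Cre- libraries. The part of sebaceous cells in the Acacb values was not tested, and in bulk samples fewer cells of a type and less RNA per cell cannot be told apart.

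Adipocytes and muscle also express Acacb. The 7 adipocyte markers summed to 9.12 to 16.6 CPM in K14-Cre+ and 6.90 to 63.1 CPM in K14-Cre- libraries, with Lep at 0 in every library, and 7 muscle markers to 10.8 to 28.8 CPM in K14-Cre+ and 8.14 to 62.6 CPM in K14-Cre- libraries. The part of these cells in the difference in Acacb was not tested.

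Beside the higher Cpt1c, melanocyte markers were higher as well. All 7 of Tyrp1, Dct, Mlana, Pmel, Tyr, Sox10 and Mitf had positive log2 fold changes. Of these, 5 passed the threshold by edgeR, against 0.406% of all tested genes called higher. The 7 markers summed to 626 to 717 CPM in K14-Cre+ and 348 to 404 CPM in K14-Cre- libraries. The part of melanocytes in the Cpt1c values was not tested. Schwann cell and neuron markers, 8 in number, summed to 42.8 to 59.1 CPM in K14-Cre+ and 41.2 to 46.5 CPM in K14-Cre- libraries. Of these 8, 5 had positive log2 fold changes and 0 passed the threshold by edgeR. Myeloid markers summed to 69.9 to 89.5 CPM in K14-Cre+ and 98.5 to 133 CPM in K14-Cre- libraries. Of 7 myeloid markers 6 were tested, with 1 higher and 1 lower past the threshold by edgeR. Over all tested genes 0.406% were called higher and 0.110% lower. Single markers ran in opposite directions. Cd74 and H2-Ab1 (2.33 to 4.6 against 13.1 to 24.1 CPM) were lower in all K14-Cre+ libraries. Lyz2 (11.9 to 16.6 against 5.01 to 6.55 CPM) and Cd68 (10.3 to 12.9 against 7.76 to 8.7 CPM) were higher in all. T cell markers summed to 18.5 to 29.2 CPM in K14-Cre+ and 28.3 to 33.0 CPM in K14-Cre- libraries. Thy1 made up most of this sum and overlapped, while Cd3e, Cd3g, Cd3d and Nkg7 were lower in all K14-Cre+ libraries. Fibroblast markers summed to 176 to 1370 CPM in K14-Cre+ and 196 to 811 CPM in K14-Cre- libraries, and were highest in K14-Cre+ replicate 1. The part of these cell types in the Cpt1c and Acacb values was not tested.

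The wider fatty acid machinery was examined in 96 further genes in 9 lists, of which 92 were tested. By edgeR 0 rose and 0 fell, against 0.515% of all genes called. At an unadjusted p under 0.05 there were 18 (19.6%, against 18.8% of all tested genes), and limma-voom called 0. The Wald test of DESeq2 called 6 (6.52%, against 5.46% of all tested genes), among them Acaa1b higher and Acsl6, Cidea, Scd1 and Ucp2 lower. Without K14-Cre+ replicate 3 edgeR called Acaa1b higher and Ucp2 lower. The log2 fold changes were positive in 39 and negative in 53 of the 92 genes, with a median of -0.05.

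Among 15 genes of mitochondrial beta-oxidation, the pathway that CPT1 supplies, 0 passed the threshold by edgeR and the median log2 fold change was -0.08. Eci1, an enoyl-CoA isomerase of unsaturated fatty acids, had 5.44 ± 0.606 CPM in K14-Cre+ and 8.76 ± 2.16 CPM in K14-Cre- cells (SD, n = 3 each; log2 fold change -0.68, edgeR adjusted p = 0.169). Eci2, a related isomerase, had 0.20 on the log2 scale, and the trifunctional protein genes Hadha and Hadhb had 0.03 and 0.13, with the sign of Hadha turning under scaling by total count and without K14-Cre+ replicate 2 or K14-Cre- replicate 2. Hadha and Hadhb were named after their values were seen. The spread of the list apart from Eci1 lay within 0.20 of 0.

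Of 12 peroxisomal genes 0 passed by edgeR. Acaa1b, a peroxisomal thiolase gene, had 4.52, 7.74 and 3.47 CPM in K14-Cre+ and 1.68, 1.31 and 1.94 CPM in K14-Cre- cells, with no overlap and a difference of 1.67 on the log2 scale (SE 0.33, edgeR adjusted p = 0.0865). Its transcript shares an identical run of 327 bases with that of Acaa1a, so reads can be ambiguous between these genes.

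Fatty acid synthesis had 0 of 10 past the threshold by edgeR and a median log2 fold change of 0.11. The desaturase gene Scd1, strong in sebaceous gland, had 135, 137 and 92.3 CPM in K14-Cre+ and 206, 198 and 149 CPM in K14-Cre- cells (log2 fold change -0.61, edgeR adjusted p = 0.175). It shares a run of 147 bases with Scd2. Mid1ip1, which promotes the assembly of carboxylase filaments, had 46.7, 50.1 and 64.3 CPM in K14-Cre+ and 41.9, 42.7 and 41.7 CPM in K14-Cre- cells (log2 fold change 0.35, edgeR adjusted p = 0.207). For both genes the groups did not overlap, and the directions were opposite.

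Activation and uptake of fatty acids had 0 of 10 tested genes past the threshold by edgeR and a median of -0.25. Acsl6, an acyl-CoA synthetase gene, had 2.02 ± 0.936 CPM in K14-Cre+ and 5.13 ± 1.46 CPM in K14-Cre- cells (SD, n = 3 each; log2 fold change -1.34, edgeR adjusted p = 0.149). Slc27a1, a fatty acid transporter gene, had -0.19. Of 5 tested genes of carnitine supply 0 passed by edgeR. The carnitine transporter gene Slc22a5 had -0.29 (SE 0.18) and the related Slc22a4 had -0.24 (SE 0.08). Genes of AMP-activated protein kinase, which inhibits the carboxylases, and of its upstream kinases had 0 of 9 past the threshold by edgeR and log2 fold changes between -0.16 (Prkag2) and 0.23 (Prkab2).

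Among 14 transcription regulators of lipid metabolism 0 passed by edgeR. Pparg, a lipogenic nuclear receptor gene of adipocytes and sebocytes, had 3.56, 3.41 and 2.28 CPM in K14-Cre+ and 5.01, 4.48 and 5.18 CPM in K14-Cre- cells (log2 fold change -0.66, edgeR adjusted p = 0.179). Lpin1, a coactivator and phosphatidate phosphatase, had 0.33 (SE 0.10). Of 10 tested targets of the PPAR receptors 0 passed by edgeR. Cidea, a lipid droplet gene, had 7.35, 8.45 and 5.42 CPM in K14-Cre+ and 12.2, 11.4 and 18.8 CPM in K14-Cre- cells (log2 fold change -1.0, edgeR adjusted p = 0.124), and the lipid droplet coat gene Plin2 had -0.44 (edgeR adjusted p = 0.181).

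The carboxylases need biotin, and the biotin and carboxylase list held 8 genes, 0 past the threshold by edgeR. An unadjusted p under 0.05 by edgeR was found for 4, and for 18.8% of all tested genes. Log2 fold changes were negative in 7 of 8. In 5 the K14-Cre+ libraries all lay below the K14-Cre- libraries, where this held for 13.8% of all genes. The list was chosen with earlier results of these data known, and nothing is read from these counts. Pccb, a subunit gene of propionyl-CoA carboxylase, had 40.2, 41.4 and 36.3 CPM in K14-Cre+ and 46.6, 48.8 and 48.1 CPM in K14-Cre- cells (log2 fold change -0.28, edgeR adjusted p = 0.147). Mccc1, of methylcrotonyl-CoA carboxylase, had 24.1, 23.5 and 23.4 CPM in K14-Cre+ and 31.5, 28.3 and 26.3 CPM in K14-Cre- cells.

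**Figure D4:**
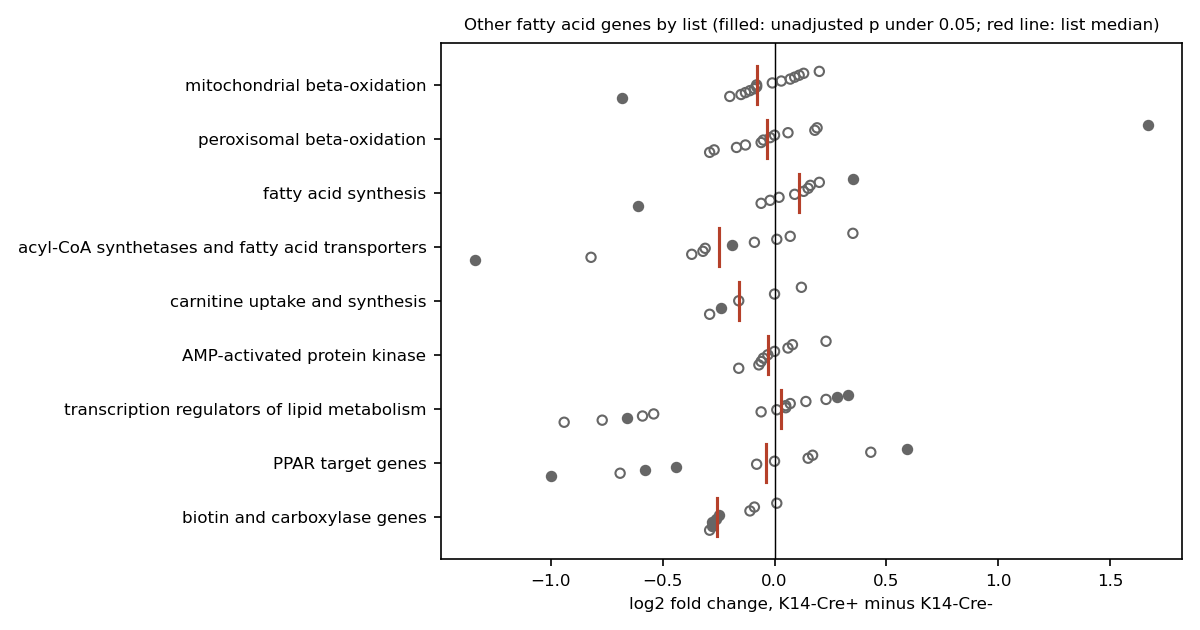
Log2 fold change, K14-Cre+ minus K14-Cre- (horizontal axis), of the 92 tested genes in 9 fatty acid lists (rows), filled at an unadjusted p under 0.05, with the list median in red. None passed the threshold after adjustment by edgeR; Acaa1b at 1.67 and Acsl6 at -1.34 lie farthest out.

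The genes closest to Cpt1c in pattern, by the root mean squared difference of log2(CPM + 0.5) centred on the K14-Cre- mean over 6 libraries, were the phosphatase gene Ptp4a3 (0.283), Gapdhs (0.288), which encodes the sperm glyceraldehyde-3-phosphate dehydrogenase, and Eda2r (0.347), the ectodysplasin A2 receptor gene. Of the exon length of Gapdhs, 10.1% lies under the oppositely oriented Tmem147os. Closest to Acacb were the guanine nucleotide exchange factor gene Arhgef19 (0.043), the potassium channel gene Kcnk2 (0.053) and Pigh (0.057), a gene of glycolipid anchor synthesis with 41.5% of its exon length under Plekhh1 on the opposite strand.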

How the data were processed

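Per the file header, the authors deposited unnormalized counts of reads for 6 libraries together with each gene's exon length. Per the submitters' processing notes, GSNAP was the aligner and featureCounts the counter, on mm10; nothing on versions, strand setting or the treatment of shared reads is given in the sources used here. Symbols were found by identifier for 37607 of the 38924 genes. filterByExpr (minimum count 10) and scaling by trimmed mean of M values preceded edgeR's quasi-likelihood test (edgeR 4.0.16, R 4.3.3), which was two-sided and without covariates, with Benjamini-Hochberg adjustment over 15525 genes and a threshold of 0.05. Fold changes are K14-Cre+ minus K14-Cre- on the log2 scale, and standard errors were derived from the same test. Alternatives used DESeq2 1.42.0, limma 3.58.1 (voom), other scalings and filters, sex as a covariate, and leaving out each library. The fits were tested on simulated counts. Libraries of a group differed by more than sampling noise (chi-square per degree of freedom 9.30 to 69.2), so none was taken for a library deposited more than once; this does not show that they come from separate animals. Levels between genes are compared as CPM per kilobase of exon. Upstream sequences are from RefSeq on GRCm38.p6, and motifs were searched on both strands.

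The genes described, the pathway lists, the marker lists and the tests were chosen with earlier results of these data known. Named outside the 10 genes were, of each pathway list, every gene past the threshold or otherwise the 2 with the smallest adjusted p, Rnaseh2b, and the 3 genes closest in pattern to Cpt1c and Acacb. Ucp2, Hadha, Hadhb, Elovl3, Soat1, Dgat2, Awat2, Far2 and Mc5r were named after their values were seen. So were Cd74, H2-Ab1, Lyz2, Cd68, Thy1, Cd3e, Cd3g, Cd3d and Nkg7. Some genes that this rule takes are not reported here.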

Additional observations from a re-analysis of the deposited data

How the results depend on the processing

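The direction of Cpt1c, Acacb, Crat, Cpt2 and Mlycd was the same under every alternative run. The number of genes past the threshold was 80, against 41 under scaling by total count (65.9% of them higher, against 78.8%), 42 with sex as a covariate, 142 with no filter beyond 1 count, 847 by the Wald test of DESeq2, and 0 to 422 when 1 library was left out. Scaling by total count moved the median of all genes by -0.113 on the log2 scale, and with it Acaca (-0.057) and Crot (-0.049) turned sign. The call of Acacb ended under that scaling (-0.86, edgeR adjusted p = 0.0925) and with sex as a covariate (-0.78), and that of Cpt1c with sex as a covariate (2.41); the cause was not tested. Crat was called by the Wald test of DESeq2 (-0.47) and without K14-Cre+ replicate 3 (-0.43), and missed the threshold under every other setting. Leaving out 1 library gave Acacb -0.80 to -0.69, Cpt1c 2.32 to 2.69, Crat -0.51 to -0.43, Cpt2 -0.22 to -0.04, Cpt1a -0.17 to 0.15 and Slc25a20 -0.18 to 0.10. Pathway genes past the threshold numbered 0, against 6 by the Wald test of DESeq2 and 0 to 2 when 1 library was left out. No paired analysis was possible because the labels give the groups no shared replicate numbers. With 3 libraries a group and 2 to 11 counts, Cpt1b was too shallow to compare.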
